A study of Mus musculus with 6 samples.

Results

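The somatostatin system comprised 6 genes of the hippocampal transcriptome, the peptide genes Sst (somatostatin) and Cort (cortistatin) and the receptor genes Sstr1, Sstr2, Sstr3 and Sstr4. They were taken by symbol from a table of read counts for 55471 genes, and all 6 passed the filter on low counts that left 17981 genes for testing. The study sequenced hippocampal RNA of adult mice that lack functional CBP, a histone acetyltransferase and transcriptional coactivator encoded by Crebbp, in forebrain excitatory neurons. The 3 CBP-ifKO libraries came from mice with floxed Crebbp alleles and the Camk2a-creERT2 transgene, a Cre recombinase that is active only in the presence of tamoxifen and is driven by a promoter of excitatory neurons. The 3 Control libraries came from littermates that the protocol describes as negative for creERT2, although their description label reads Camk2a_creERT2. Both groups were C57BL/6 mice by their labels (C57BL/6J according to the methods) aged 3 to 6 months that received 5 intragastric administrations of tamoxifen (20 mg/mL in corn oil), and according to the methods each library pooled the hippocampi of 3 females. The floxed allele leaves a truncated CBP protein, and cells outside the driver's range keep the intact gene. The genes were selected on the counts of these same 6 libraries, as genes lower in CBP-ifKO than in Control, and Sstr1 and Sstr3 are on the study's list of genes lower in CBP-ifKO. Their differences between genotypes are therefore given as a description, without p-values.

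Somatostatin is a neuropeptide of GABAergic interneurons, and in the hippocampus it marks dendrite-targeting cells such as those of the stratum oriens. Cortistatin is a close relative from a separate gene that binds the same receptors and also the ghrelin receptor. The somatostatin receptors couple to Gi/o proteins, which inhibit adenylyl cyclases, open potassium channels and close calcium channels, and SSTR3 protein is concentrated in the primary cilium of neurons. The promoter of Sst is also a textbook regulatory sequence: the cAMP response element (CRE), the palindrome bound by the transcription factor CREB, was described in it, and CBP is the coactivator that binds phosphorylated CREB.

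Promoter sequence was therefore read for the genes of the system, as the 250 bases before each transcription start in a RefSeq table on build GRCm38.p6. It covered 5 of the 6 genes (all but Sstr1) in 6 windows, since Sstr3 has a pair of starts. Each window was searched on both strands for the full CRE, TGACGTCA, and for its core TGACG, which reads CGTCA on the other strand and is part of every full CRE. The full CRE was found in 2 windows, those of Sst (48 to 41 bases before the start) and Sstr2 (58 to 51 bases before the start). The core outside a full CRE was found 18 to 14 bases before the start of Cort and 9 to 5 bases before a start of Sstr3, and neither motif was found in the window of Sstr4 or in the other window of Sstr3. Of all 32851 windows in the table, 1.55% held a full CRE and 17.8% held the core, full CREs included. A match describes the letters only and is no measurement of binding. The 4 matches are shown in 30 bases each, 5′ to 3′ on the strand of the gene, with the motif in capitals.
Sst, chr16:23890874-23890903, minus strand: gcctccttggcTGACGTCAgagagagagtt
Sstr2, chr11:113619258-113619287, plus strand: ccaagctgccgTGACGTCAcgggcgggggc
Cort, chr4:149126764-149126793, minus strand: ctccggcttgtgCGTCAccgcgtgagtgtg
Sstr3, chr15:78544346-78544375, minus strand: acgtgtcctggagatggggggTGACGtacc
In the GENCODE annotation of the same build, the stretches at Sst and Sstr3 lie in an annotated exon and those at Sstr2 and Cort lie outside exons.

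Total counts ran from 10199008 to 14950257 per library. Crebbp was at 191 ± 30.1 CPM in Control against 98.4 ± 10.8 in CBP-ifKO (mean ± SD, n = 3), where CPM are counts set to a common library size with TMM factors. Counts over whole genes do not separate recombined from intact transcripts. Esr1, whose ligand-binding part is contained in creERT2, was at 5.65 to 6.29 CPM in the Control libraries and 63.6 to 69.4 CPM in the CBP-ifKO libraries, and Arsi, a gene linked to the driver, was at 0.77 ± 0.26 and 5.32 ± 0.90 CPM (SD, n = 3). These levels follow the grouping by title, not the description label of the Control samples. Over the 17981 genes tested, 4.99% (897) were lower and 1.4% (252) were higher at an edgeR adjusted p under 0.05, the threshold used for every call. With libraries scaled by their totals only, 667 were lower and 514 higher, and with trends on GC content and gene length removed, 727 and 371. P-values of this design measure the spread between pooled libraries.

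All 6 genes of the system had lower levels in every CBP-ifKO library than in any Control library, and 5 of them, all but Cort, lay past the threshold. Among all genes tested, the groups did not overlap in this direction for 13.9%. The contrast was used in choosing the genes, so nothing is read from these counts. In bulk RNA of the hippocampus, fewer cells of a type and less RNA per cell cannot be told apart.

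Both peptide genes were lower in CBP-ifKO. Sst (ENSMUSG00000004366, GRCm38 chromosome 16, 23889573 to 23890958, minus strand), the gene of preprosomatostatin, was at 67.9, 86.5 and 74.7 CPM in the Control libraries (replicates 1 to 3, the order kept throughout) and at 56.9, 51.3 and 53.2 CPM in the CBP-ifKO libraries. The CBP-ifKO values lay within a few CPM of each other, whereas the Control values were more spread, with replicate 2 the highest. The mean of 53.8 ± 2.83 CPM was 70.5% of the Control mean of 76.3 ± 9.42 CPM (SD, n = 3), which corresponds to a log2 change of -0.51 (SE 0.084). Cort (ENSMUSG00000028971, chromosome 4, 149125034 to 149126763, minus strand) was the gene with the fewest counts, between 17 and 28 per library, so that counting error alone was 18.9% to 24.3% of each value. Its levels were 2.07, 2.40 and 2.68 CPM in Control and 1.74, 1.51 and 1.40 CPM in CBP-ifKO. The highest CBP-ifKO library was close to the lowest Control library. The mean was 65.1% of the Control mean, with a log2 change of -0.62 (SE 0.26), larger than that of Sst but with about 3 times its error, and it did not pass the threshold.

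Among the receptor genes the difference was largest for Sstr1. Sstr1 (ENSMUSG00000035431, chromosome 12, 58211772 to 58214444, plus strand) was at 8.92, 8.50 and 8.23 CPM in Control and 3.49, 4.80 and 5.02 CPM in CBP-ifKO. The Control values were tightly grouped and the lowest CBP-ifKO value, replicate 1, stood below the other two. The mean of 4.44 ± 0.83 CPM was 51.9% of the Control mean of 8.55 ± 0.35 CPM (SD, n = 3), and the log2 fold change was -0.93 (SE 0.16).

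Sstr2 (ENSMUSG00000047904, chromosome 11, 113619342 to 113626028, plus strand), the receptor targeted by the clinical analogue octreotide, was at 6.10, 5.33 and 6.15 CPM in Control and 3.68, 3.81 and 4.03 CPM in CBP-ifKO. The groups were separated by more than 1 CPM. The mean was 3.84 ± 0.18 CPM against 5.86 ± 0.46 CPM (SD, n = 3; 65.6%), with a log2 change of -0.60 (SE 0.17). The span of Sstr2 overlaps Slc39a11 on the opposite strand, and 0 exon bases are shared. No exon base of the other 5 genes is shared with another gene either.

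Sstr3 (ENSMUSG00000044933, chromosome 15, 78537008 to 78544685, minus strand), the ciliary receptor, had the most counts of the receptor genes, from 225 to 449 per library. It was at 33.8, 38.6 and 31.4 CPM in Control and 21.8, 20.4 and 23.5 CPM in CBP-ifKO, so that the groups lay well apart. The mean of 21.9 ± 1.55 CPM was 63.4% of the Control mean of 34.6 ± 3.63 CPM (SD, n = 3), with a log2 change of -0.66 (SE 0.098). Sstr4 (ENSMUSG00000037014, chromosome 2, 148395344 to 148396767, plus strand), a receptor expressed in the hippocampus and neocortex, showed the smallest difference. It was at 18.5, 20.1 and 22.3 CPM in Control and 16.1, 14.98 and 15.9 CPM in CBP-ifKO. The mean was 15.7 ± 0.59 CPM against 20.3 ± 1.92 CPM (SD, n = 3; 77.1%), and the log2 fold change was -0.38 (SE 0.11). Sstr5, the remaining receptor of the family, had 2, 3 and 2 counts in Control and 2, 3 and 0 in CBP-ifKO and was not tested.

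**Figure D1:**
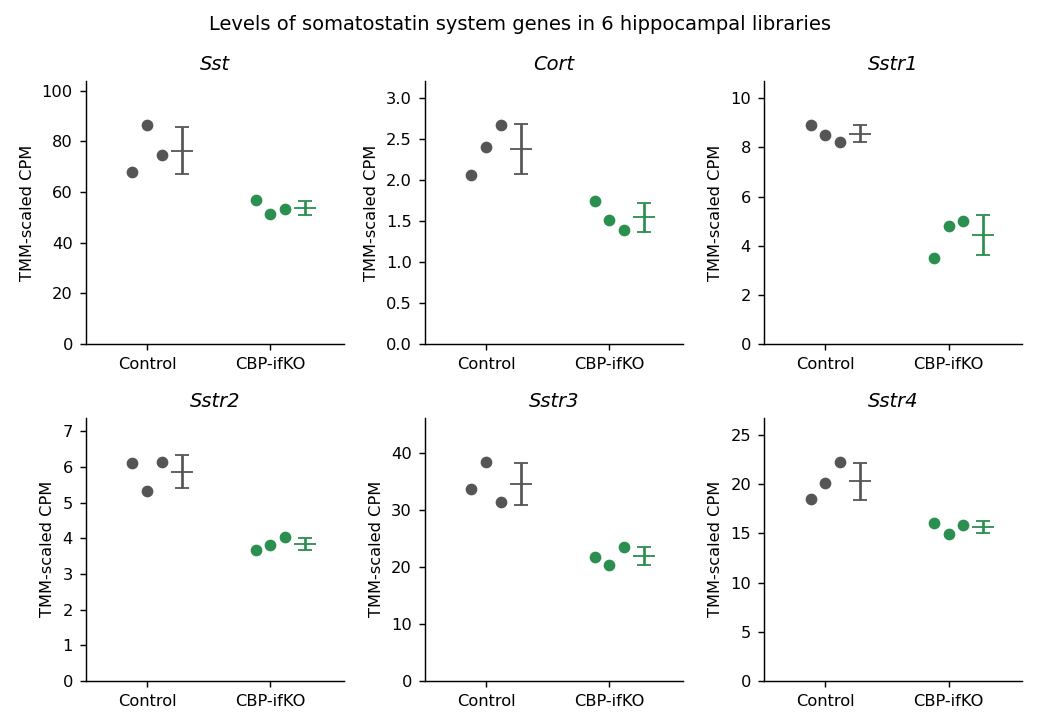
TMM-scaled CPM of Sst, Cort, Sstr1, Sstr2, Sstr3 and Sstr4 (y axes, each from 0) in the 3 Control and 3 CBP-ifKO libraries (points), with the mean and SD beside them. In each panel the CBP-ifKO points lie below all Control points, with the narrowest gap for Cort (2.07 against 1.74 CPM).

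The call held for Sst, Sstr1 and Sstr3 in all 15 alternatives that were run. Cort passed the threshold in none of them, and the DESeq2 Wald test gave it no adjusted p. Sstr2 kept its call in 5 and Sstr4 in 6 of the 15. Both lost it under the DESeq2 Wald test (which called 5.42% of its genes lower), with library totals as the only scaling, and without Control replicate 3 or any of the CBP-ifKO libraries. Sstr2 was also lost without Control replicate 1 and Sstr4 without Control replicate 2. The log2 fold change was negative in every alternative for all 6 genes.

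The members are rich in G and C bases. Their transcripts had a GC content of 53.1% (Sstr2) to 60.6% (Sstr4), above the median of 48.3% over the genes tested, and that of Sstr4 exceeded 97.4% of them. When trends of the counts with GC content and gene length were removed per library, Sstr4 moved most, from a log2 fold change of -0.38 to -0.17, and was no longer past the threshold. Sstr1 moved to -0.77, Sstr3 to -0.53, Sst to -0.42 and Cort to -0.47, while Sstr2 stayed near its value at -0.56 but lost its call.

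**Figure D2:**
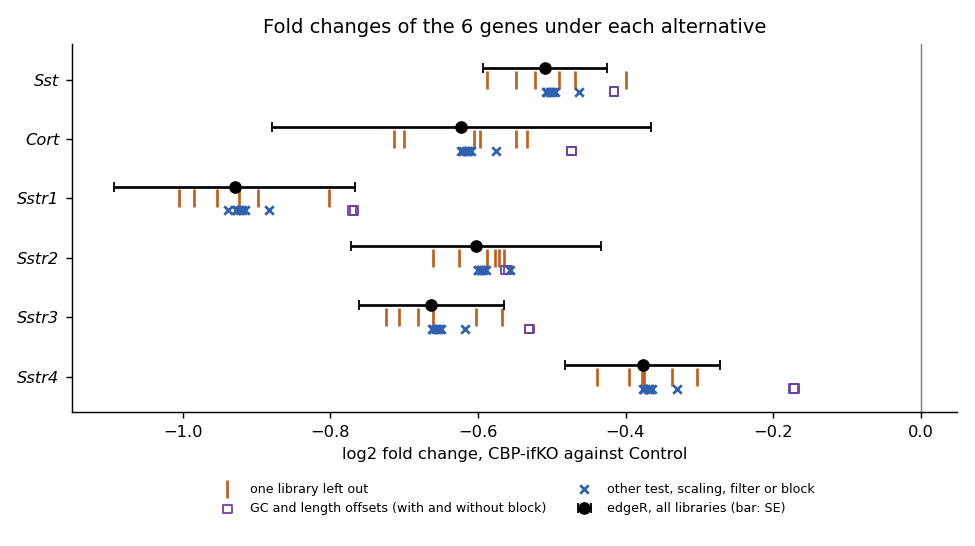
Log2 fold change of CBP-ifKO against Control (x axis) of the 6 genes with all libraries (black point, bar: SE), with each library left out (orange), with another test, scaling, filter or block (blue) and with GC and length trends removed (violet). Every mark lies below 0, and the violet marks of Sstr4 lie farthest from its black point (-0.17 against -0.38).

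Per length, Sst was by far the most abundant gene of the system in Control. Its level was 105.9 ± 13.1 CPM per kb of exon (SD, n = 3), 7.43 times that of the next gene, Sstr4, at 14.3 ± 1.35 CPM per kb. Sstr3 followed at 8.01 ± 0.84, Sstr1 at 4.18 ± 0.17, Cort at 3.52 ± 0.45 and Sstr2 at 2.73 ± 0.22 CPM per kb. Sstr5 was at 0.079 ± 0.014 CPM per kb. The Control ranges of neighbours in this order did not overlap, although Sstr1 exceeded Cort by only 1.19 times. The order depended on the length used: per kb of coding sequence Sstr3 (26.9 CPM per kb) stood above Sstr4 (17.6 CPM per kb), and the ranges of Sstr1 and Cort overlapped.

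The summed level of the 5 receptor genes was 29.3 ± 1.02 CPM per kb of exon in Control and 20.1 ± 0.77 CPM per kb in CBP-ifKO (SD, n = 3), or 68.6% of the Control value. Sstr4 made up 48.7 ± 3.26% of this sum in Control and 54.8 ± 1.93% in CBP-ifKO, without overlap between the libraries. The share of Sstr1 was 14.3 ± 1.08% in Control and 10.8 ± 1.91% in CBP-ifKO, and was lower in each CBP-ifKO library than in any Control library. The shares of Sstr2 (9.36% and 8.93%) and Sstr3 (27.4% and 25.3%) overlapped between genotypes. With coding length as the divisor the Control shares were 47.0% for Sstr3 and 30.7% for Sstr4, so that Sstr3 took the largest part.

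**Figure D3:**
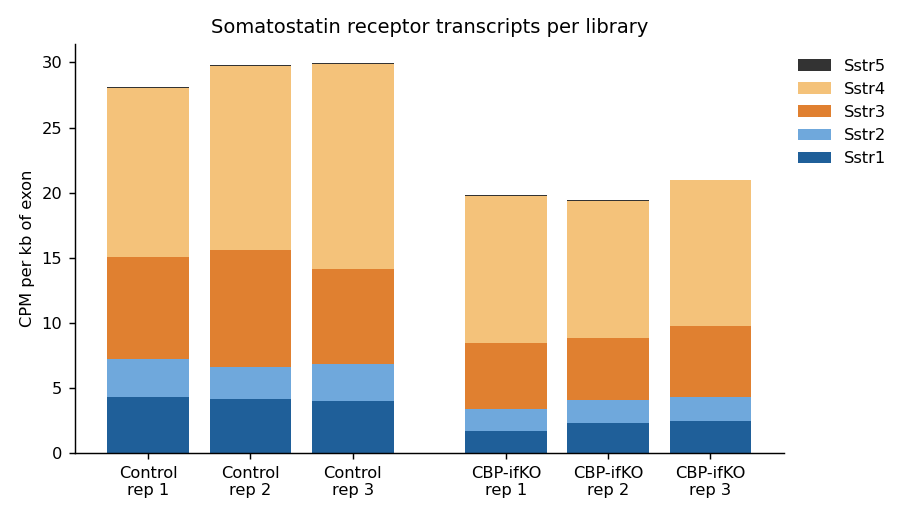
Stacked levels of Sstr1 to Sstr5 in CPM per kb of exon (y axis) in each library (x axis). The stacks reach 28.1 to 29.9 in Control and 19.5 to 20.9 in CBP-ifKO, and Sstr4 is the largest layer in each.

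The cells that make somatostatin were examined through other genes of somatostatin interneurons, since the driver is active in excitatory neurons. The summed level of 14 such genes ran from 541.9 to 607.8 CPM in Control and from 501.0 to 526.6 CPM in CBP-ifKO, on average 89.5% of the Control mean. None of the 14 was at 0 in every library, and Chodl, with 0 to 3 counts per library, was not tested. Of the 13 tested, 3 fell (23.1%, beside 4.99% of all genes tested) and 0 rose. The median log2 fold change was -0.20, against -0.0033 over all genes. Elfn1, which organises excitatory synapses onto these cells, fell by 0.60 in log2 units (SE 0.14, edgeR adjusted p 0.0173). Nos1, the neuronal nitric oxide synthase, fell by 0.41 (SE 0.094, edgeR adjusted p 0.0141), and Grin3a, an NMDA receptor subunit, fell by 0.33 (SE 0.081, edgeR adjusted p 0.0213). Nos1 is also transcribed in pyramidal neurons, so the sum does not describe somatostatin interneurons alone. Mean levels went from 104.7 CPM in Control to 78.9 in CBP-ifKO for Nos1 and from 74.5 to 58.9 for Grin3a. The summed means were 575.6 and 515.1 CPM. All 3 calls were lost without Control replicate 3, Nos1 also without Control replicate 1 or CBP-ifKO replicate 2, Grin3a also without CBP-ifKO replicate 1 or 3, and Elfn1 also without CBP-ifKO replicate 2 or 3. With GC and length trends removed, Elfn1 was not past the threshold (-0.46) and the median of the list was -0.11, as it was without Control replicate 1. Of the most abundant genes of the list, Reln was at 158 ± 13.6 CPM in Control against 155 ± 6.27 in CBP-ifKO and Satb1 at 81.1 ± 6.61 and 78.6 ± 4.94 CPM (SD, n = 3). Npy, the peptide that many of these cells release with somatostatin, was at 22.5 ± 5.25 CPM in Control against 24.5 ± 4.41 in CBP-ifKO (log2 fold change 0.11, edgeR adjusted p 0.731).

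Genes shared by all GABA interneurons differed less. Their summed level ran from 1019 to 1029 CPM in Control and from 955.9 to 980.5 CPM in CBP-ifKO, or 94.9% of the Control mean. Of these genes, 1 of 11 fell (9.09%, beside 4.99% of all genes tested). The median log2 fold change was -0.077 (-0.031 with library totals as the only scaling). Gad1 and Gad2, the enzymes of GABA synthesis, had log2 changes of -0.060 (SE 0.057, edgeR adjusted p 0.605) and -0.077 (SE 0.063, edgeR adjusted p 0.536). Slc32a1, the vesicular GABA transporter, fell by 0.38 (SE 0.11, edgeR adjusted p 0.045), a call that held in 5 of the 15 alternatives. It was lost without each library other than CBP-ifKO replicate 1 and under DESeq2, upper-quartile factors and library totals, and was at -0.15 with GC and length trends removed.

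Genes of other interneuron classes had a summed level of 615.0 to 661.9 CPM in Control and 547.2 to 616.5 CPM in CBP-ifKO, 90.6% of the Control mean. Of these, 2 of 10 were lower (20.0%, beside 4.99% of all genes tested). The median log2 fold change was -0.17 (-0.059 without Control replicate 2). Cck, the gene of cholecystokinin, which pyramidal neurons also transcribe, fell by 0.61 (SE 0.11, edgeR adjusted p 0.00383) in this fit and was past the threshold in all 15 alternatives. Calb2, which encodes calretinin, fell by 0.49 (SE 0.14, edgeR adjusted p 0.0382) and lost its call without Control replicate 3 or any CBP-ifKO library, with library totals only and with GC and length trends removed (-0.44). Cnr1, the cannabinoid receptor of Cck basket cells, was at 372 ± 5.41 and 369 ± 15.8 CPM (SD, n = 3). Pvalb was at 21.3 ± 4.01 CPM in Control against 18.6 ± 2.22 in CBP-ifKO, and Vip at 15.7 ± 1.32 and 17.6 ± 0.51 CPM (SD, n = 3), and neither passed the threshold.

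Relative to these marker sums the peptide genes were also lower in CBP-ifKO, by a smaller proportion than in CPM alone. For every 100 CPM of the other somatostatin interneuron genes, Sst was at 11.8, 15.96 and 12.3 CPM in Control and at 10.8, 9.92 and 10.6 CPM in CBP-ifKO. The groups did not overlap, but the gap between 11.8 and 10.8 was smaller than the Control SD of 2.29. Per 100 CPM of the genes of all GABA interneurons, Sst was at 7.47 ± 0.93 CPM in Control against 5.54 ± 0.30 in CBP-ifKO, and per 100 CPM of the other interneuron classes at 12.02 ± 1.02 and 9.41 ± 1.04 CPM (SD, n = 3). Cort was at 0.41 ± 0.049 CPM in Control against 0.30 ± 0.027 in CBP-ifKO per 100 CPM of the somatostatin interneuron genes. The part of the marker levels in the difference of the peptide genes was not tested.

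**Figure D4:**
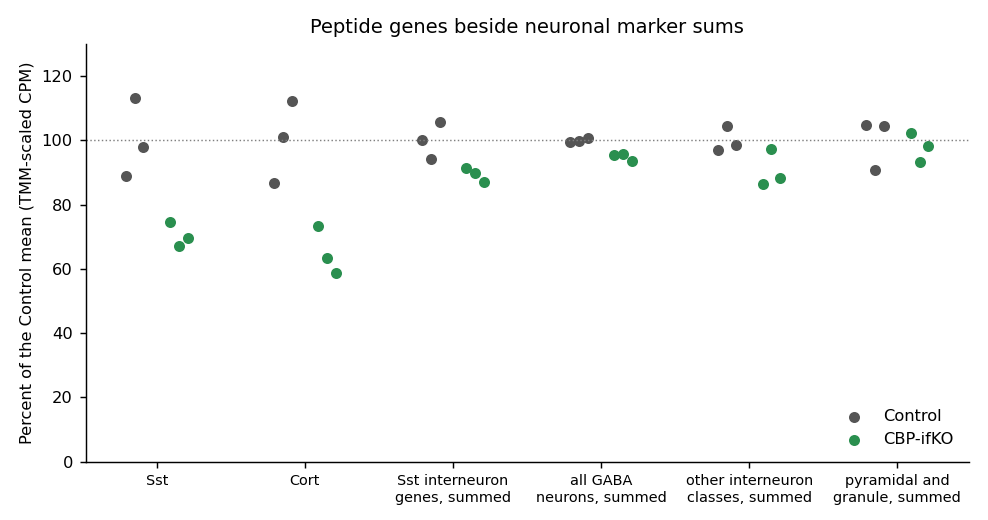
Levels of Sst, Cort and 4 summed marker lists in each library as percent of the Control mean (y axis, TMM-scaled CPM; grey, Control; green, CBP-ifKO). The CBP-ifKO means lie at 70.5% for Sst, 65.1% for Cort, 89.5% for the somatostatin interneuron genes, 94.9% for all GABA interneurons, 90.6% for other classes and 98.0% for pyramidal and granule neurons. Camk2a, whose mean was higher in CBP-ifKO, makes up a large part of the last sum, and its endogenous and transgene transcripts are not separated.

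Among the genes that cut, finish, store and degrade the peptides, 1 of 14 fell and 1 rose, a share of 14.3% beside 6.39% of all genes called in either direction, and the median log2 fold change was -0.096. Pcsk1, a prohormone convertase that cleaves prosomatostatin, fell from 44.1 ± 3.26 to 28.99 ± 1.73 CPM (SD, n = 3; log2 change -0.60, SE 0.084, edgeR adjusted p 4.20e-04) and passed the threshold in all 15 alternatives. Chgb, the granule protein chromogranin B, rose by a log2 change of 0.25 (SE 0.060, edgeR adjusted p 0.018). Its call was lost without Control replicate 1 or 3 and without CBP-ifKO replicate 1 or 3. The other convertase Pcsk2 was at 277 ± 14.0 CPM in Control against 263 ± 1.12 in CBP-ifKO, and the carboxypeptidase Cpe, the most abundant gene of the list, at 1596 ± 116 and 1446 ± 87.4 CPM (SD, n = 3). Neither passed the threshold. The lowest fold change belonged to Pcsk1n, an inhibitor of Pcsk1, at -0.80 (SE 0.25, edgeR adjusted p 0.065), where the groups overlapped.

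Downstream of the receptors, 10 of the 33 signalling genes tested (30.3%) fell and 0 rose in CBP-ifKO, beside 4.99% and 1.4% of all genes tested. Their median was -0.16 in log2 units, and 28 of the 33 values were negative, beside 50.7% over all genes tested. The median was -0.061 with GC and length trends removed. All 3 synaptic scaffold genes of the list were among the 10 that fell. Kcnq3 and Kcnq5, subunit genes of M-current potassium channels, which somatostatin opens in hippocampal neurons, fell by 0.42 and 0.26 in log2 units (edgeR adjusted p 0.00608 and 0.0386). Kcnq3 held its call in 14 of the 15 alternatives (not without CBP-ifKO replicate 3) and Kcnq5 in 8. Dlg4, which encodes PSD-95, fell by 0.43 (SE 0.070, edgeR adjusted p 0.00133), from 363 ± 9.29 to 269 ± 29.6 CPM. Shank1 fell by 0.50 (SE 0.12, edgeR adjusted p 0.0175) and Shank2 by 0.32 (SE 0.090, edgeR adjusted p 0.04), but their groups overlapped. Shank1 was called in 9 and Shank2 in 8 of the 15 alternatives, and with GC and length trends removed they were at -0.26 and -0.22 and not past the threshold. Kcnq5, Shank1 and Shank2 lost their calls without Control replicate 1 or 3 and without CBP-ifKO replicate 2 or 3, and Kcnq5 also without CBP-ifKO replicate 1.

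The G protein and its effectors gave single calls. Of the 5 Gi/o alpha subunits, Gnaz fell by 0.44 (SE 0.076, edgeR adjusted p 0.00196), whereas the abundant Gnao1 was at 368 ± 30.8 CPM against 329 ± 34.2 CPM (SD, n = 3). Of the 7 adenylyl cyclases, Adcy5 fell by 0.43 (SE 0.070, edgeR adjusted p 0.00134), and the most abundant, Adcy1, was at 1329 ± 34.5 and 1236 ± 61.5 CPM and was not past the threshold. Of the 3 GIRK potassium channel genes tested, Kcnj9 fell by 0.33 (SE 0.081, edgeR adjusted p 0.0232), with Kcnj3 at 261 CPM in both groups. The call of Kcnj9 held in 9 of the 15 alternatives, was lost without Control replicate 2 or 3 and CBP-ifKO replicate 2 or 3, and was absent with GC and length trends removed (-0.19). Rgs4, which shortens Gi/o signals by speeding GTP hydrolysis, fell by 0.50 (SE 0.084, edgeR adjusted p 0.00163). None of the 2 calcium channel, 2 arrestin, 4 receptor kinase and 2 tyrosine phosphatase genes passed the threshold. Gnaz, Adcy5, Dlg4 and Rgs4 were past the threshold in all 15 alternatives. The count for the list was 7 with GC and length trends removed, 5 when Control replicate 3 was left out, 5 when CBP-ifKO replicate 2 was, and 4 when CBP-ifKO replicate 3 was.

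Genes of the neuronal primary cilium, where SSTR3 resides, gave 2 higher calls among 18 (11.1%, beside 1.4% of all genes tested) and 0 lower calls. The median log2 fold change was 0.14, with 11 positive and 7 negative values. Bbs1 and Bbs9, subunits of the BBSome, the complex that carries receptors into and out of cilia, rose by log2 changes of 0.30 (SE 0.075, edgeR adjusted p 0.0218) and 0.34 (SE 0.082, edgeR adjusted p 0.0201). Bbs1 lost its call without any library other than Control replicate 2, and Bbs9 when Control replicate 1 or CBP-ifKO replicate 2 or 3 was left out. The list had 5 higher calls with library totals as the only scaling and 4 with upper-quartile factors, 0 without Control replicate 1 or without CBP-ifKO replicate 2 or 3, and 1 without Control replicate 3. Without Control replicate 2 it had 2 higher and 2 lower calls. With GC and length trends removed in a fit with the replicate block it had 4 higher calls and 1 lower call. The 4 other BBS genes on the list had values of 0.12 to 0.30 and did not pass. Adcy3, the cyclase of neuronal cilia, was at 42.0 ± 2.06 and 40.2 ± 2.66 CPM (SD, n = 3). The ciliary motor gene Kif3a was at 162 ± 6.44 CPM in Control against 169 ± 7.77 in CBP-ifKO.

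The related peptide receptors gave no call, with 0 of 10 past the threshold. All 10 had a negative log2 fold change, beside 50.7% of all genes tested, and their median was -0.31. At an unadjusted edgeR p under 0.05 there were 6, beside 3816 of all 17981 genes tested, and the DESeq2 Wald test called 0. There was 1 lower call without Control replicate 2, and 2 with GC and length trends removed in a fit with the replicate block. The opioid receptor genes ranged from -0.010 for Oprm1 to -0.46 for Oprk1, and Npy2r, the most abundant of the list, was at 75.0 ± 4.44 and 65.0 ± 8.55 CPM (SD, n = 3; edgeR adjusted p 0.191). Galr1, Galr2 and Uts2r were below the filter on counts and Galr3 was listed at 0 in each library. Ghsr, the ghrelin receptor that cortistatin also binds, was at 1.35 ± 0.14 CPM in Control against 0.57 ± 0.32 in CBP-ifKO, a log2 change of -1.153 (SE 0.39, edgeR adjusted p 0.0944).

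Of CREB and its cofactors, only the targeted Crebbp passed the threshold among the 9 genes, with a log2 change of -0.96 (SE 0.10, edgeR adjusted p 3.63e-05), and the list's median was -0.057 (-0.0087 with GC and length trends removed). Creb1 was at 113 ± 7.41 CPM in Control against 117 ± 5.82 in CBP-ifKO, and the CREB relative Atf2 at 168 ± 2.23 and 162 ± 1.41 CPM (SD, n = 3). Ep300, the paralogue of Crebbp, was at 101 ± 17.5 and 114 ± 7.80 CPM (edgeR adjusted p 0.321).

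Genes of hippocampal pyramidal and granule neurons, the cells that carry the driver, had a summed level of 4010 to 4642 CPM in Control and 4134 to 4526 CPM in CBP-ifKO, 98.0% of the Control mean. Of 12 genes, 3 fell and 0 rose, beside 4.99% and 1.4% of all genes tested. Their median log2 fold change was -0.12 (-0.080 with library totals only). Wfs1, a membrane protein gene that marks CA1 pyramidal cells, fell by 1.19 (SE 0.085, edgeR adjusted p 8.34e-07). Fibcd1, another CA1 gene, fell by 0.63 (SE 0.059, edgeR adjusted p 1.48e-05) and Mpped1 by 0.62 (SE 0.064, edgeR adjusted p 3.13e-05). All 3 were past the threshold in each of the 15 alternatives. Camk2a, the gene of the driver's promoter, was at 1939 ± 215 and 2066 ± 130 CPM (SD, n = 3), where endogenous and transgene transcripts are not separated.

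Genes of neighbouring regions were examined because somatostatin and its receptors are also expressed there. The summed level of 8 neocortical genes ran from 311.9 to 334.7 CPM in Control and from 271.6 to 284.4 CPM in CBP-ifKO. Of the 7 tested, 1 fell (14.3%, beside 4.99% of all genes tested). It was Scnn1a, a sodium channel subunit gene of layer 4 neurons (log2 change -1.47, SE 0.29, edgeR adjusted p 0.00532). All 7 had a negative log2 fold change, beside 50.7% of all genes tested, and their median was -0.22. Of these 7, 6 had an unadjusted edgeR p under 0.05, as had 3816 of all 17981 genes tested. Lmo4 was the most abundant at 138 ± 12.4 and 118 ± 5.23 CPM (SD, n = 3). The call of Scnn1a was absent under the DESeq2 Wald test, and the gene was not tested with a minimum of 10 counts in each library. The 6 thalamic genes had summed levels of 59.7 to 63.8 CPM in Control and 57.2 to 61.1 CPM in CBP-ifKO and gave 0 calls with edgeR, 0 with DESeq2 and 0 at an unadjusted p under 0.05, and their median log2 fold change was -0.21 (-0.11 without Control replicate 1). Of the 5 striatal genes tested, 1 rose (20.0%, beside 1.4% of all genes tested). It was Rgs9, with a log2 change of 0.44 (SE 0.11, edgeR adjusted p 0.0221). The list's sum was 34.4 to 39.3 CPM in Control and 33.9 to 36.1 CPM in CBP-ifKO. The median of the striatal genes was -0.38, opposite in sign to the call, which was lost without any library other than Control replicate 1. Without Control replicate 1, 2 striatal genes were lower. The part of these regional levels in the differences of the somatostatin system was not tested.

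**Figure D5:**
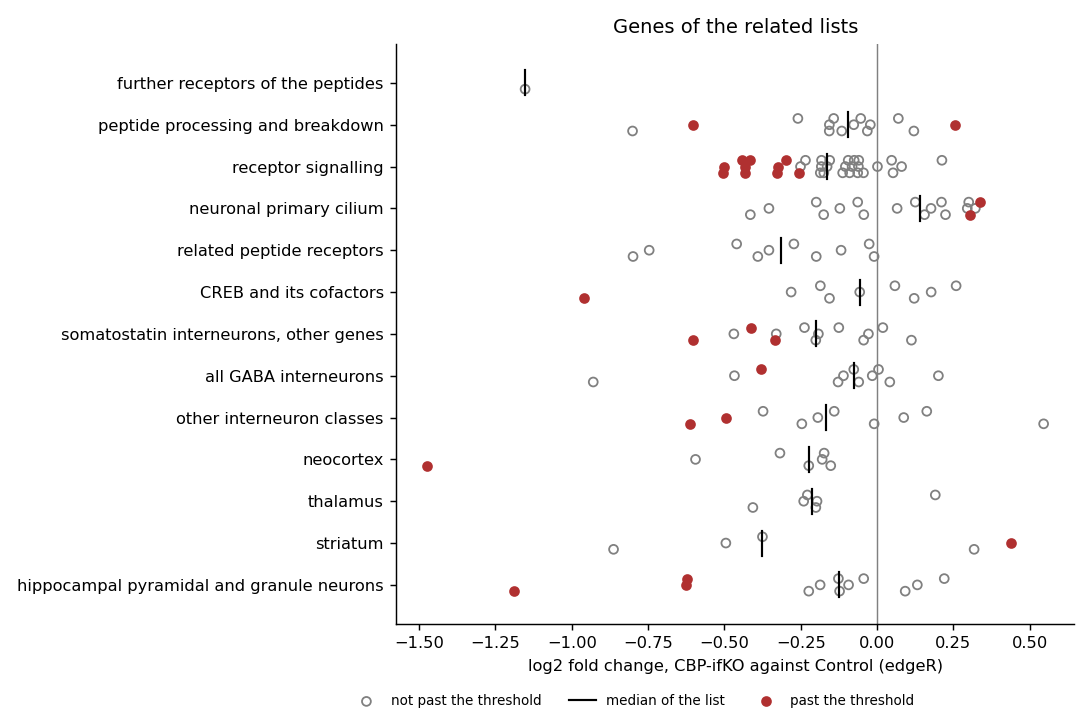
Log2 fold change of CBP-ifKO against Control (x axis, edgeR) of each tested gene in 13 lists related to the somatostatin system (rows), with genes past the threshold in red and the median of each list as a bar. Receptor signalling has 10 red points, each below 0, and the primary cilium list is the only row with a median above 0 (0.14).

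The genes outside the system with the nearest profiles over the 6 libraries are named for each member as a description. Likeness was measured as the mean absolute difference of log2 CPM centred on each gene's mean, over 12237 genes with a mean of at least 5 CPM. The nearest to Sst were Hdac5, with a mean difference of 0.015, and Cnih2, with 0.029. The nearest to Sstr3 were Dusp1 (0.028) and Dpf1 (0.033), to Sstr2 Efemp1 (0.036) and Npr3 (0.036), and to Sstr4 Fam104a (0.031) and Sorcs3 (0.033). Cort was nearest to Pde9a (0.041) and Chrna5 (0.051), although its counting error of 18.9% to 24.3% of each value was larger than these differences. Sstr1 had the least close partners, Tdo2 (0.080) and Grp (0.096). The measure depends on the genotype difference as well as on the spread between replicates. Partners were picked as the nearest of all genes compared, so small differences were assured and nothing is read from them. Hdac5 had a log2 fold change of -0.50 beside -0.51 for Sst.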

How the data were processed

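The authors trimmed single-end reads of 50 bp (FastQC 0.11.8, Trim Galore 0.6.4, per the submitters' processing notes), aligned them to GRCm38 with STAR 2.6.1 and kept reads of mapping quality over 10 for counting over Ensembl exons (Rsubread). Deposited values are raw counts per gene, and the strand setting is not given in the sources used here. Groups and replicate numbers came from sample titles. The members and lists were chosen with earlier results of these data known.

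Counts were fitted with edgeR 4.0.16 in R 4.3.3 (quasi-likelihood F-test, TMM factors, filterByExpr at a count of 10 and a total of 15), with Benjamini-Hochberg adjustment over 17981 genes and a threshold of 0.05. The fit included all 6 libraries, with genotype as the only term, and was tested on simulated data. The study used DESeq2 1.30.1, so DESeq2 1.42.0 was run as an alternative. The other alternatives were scaling by RLE, upper-quartile factors or library totals, no filter, at least 10 counts per library, the replicate block, offsets for GC content and exon length (natural splines, 5 degrees of freedom), these with the block, and each library left out. Standard errors are the log2 fold change over the root of F. Symbols, coordinates and lengths came from GENCODE M21 on GRCm38, which matched 99.57% of identifiers. Promoters came from RefSeq on GRCm38.p6. Chi-square tests between same-genotype libraries gave 2.48 or more per degree of freedom, above sampling noise.

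Genes named were the 6 members and Sstr5, the genes of each list past the threshold (at most the 4 largest changes) and its most abundant genes, with 2 nearest profiles per member. Outside this rule, the remaining signalling calls, Npy, Pvalb, Vip, Pcsk1n, Oprm1, Oprk1, Adcy3 and genes below the filter were named after their values were seen. The lists held 155 distinct genes beside the members, of which 146 were tested, and Adcy3, Mchr1 and Npy2r stand on 2 lists each. Some list genes are not reported here by name.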

Additional observations from a re-analysis of the deposited data

How the results depend on the processing

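Of the 6 members, 5 were called, and the log2 fold changes kept their sign in all alternatives. The number of members called was 3 under DESeq2, 3 with library totals only, 3 with GC and length offsets and 3 to 4 when a library was left out. Sstr2 lost its call under DESeq2 (-0.60), with library totals (-0.56), without a filter (-0.59), with the replicate block (-0.60) and with GC and length offsets (-0.56). With single libraries left out it ran from -0.66 to -0.56, and the call was lost in each case but Control replicate 2 (-0.66). Sstr4 lost it under DESeq2 (-0.37), with library totals (-0.33), with GC and length offsets (-0.17) and with these and the block (-0.17). With single libraries left out it ran from -0.44 to -0.30, and the call was lost in each case but Control replicate 1 (-0.44). The cause was not tested. Over all genes, 1149 calls became 1839 with the block and the GC and length offsets together, and 498 to 1326 when a library was left out (546 when it was Control replicate 3, and 498 or 526 when it was CBP-ifKO replicate 2 or 3). The 26 calls among the list genes became 40 and 12 to 27 (13, 14 and 12 without the same libraries), and 10 of the 26 were called in all 15 alternatives. The replicate block alone gave 1210 calls. With the GC and length offsets, calls numbered 1098 without the block and 1839 with it. Deviations of libraries with the same number correlated at 0.077, 0.037 and 0.0022. These correlations were taken without the GC and length offsets. Whether libraries with the same number share more than the number was not tested with the offsets. Per kb of coding length, an alternative added after seeing the data, levels in Control were 219.4 (Sst), 26.9 (Sstr3), 17.6 (Sstr4), 7.29 (Sstr1), 7.29 (Cort) and 5.29 CPM per kb (Sstr2), and receptor shares 47.0% (Sstr3), 30.7% (Sstr4), 12.7% (Sstr1) and 0.34% (Sstr5). Depth limits Cort most, at 17 to 28 counts per library.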
